A study of Mus musculus with 96 samples.

Results

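The 16 epidermal RNA libraries taken at circadian time 16 (CT16) are described here, 4 from each of 4 mouse genotypes, out of 96 libraries in the series. They were chosen by the time and genotype in their titles, with no use of measured values. The question at this single time is how the epidermal transcriptome differs when the clock gene Arntl is active in the whole animal, in brain and epidermis, in epidermis without brain, or in brain without epidermis. The series samples each genotype at 6 times spaced 4 h apart, with CT0 at the hour of lights-on before the darkness.

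RERE mice carried Arntl stopFL/stopFL, K14Cre tg/wt and Syt10-Cre tg/wt, so that Arntl was restored in brain and epidermis. EpiRE mice carried Arntl stopFL/stopFL, K14Cre tg/wt and Syt10-Cre wt/wt, and were restored in epidermis. BRE mice carried Arntl stopFL/stopFL, K14Cre wt/wt and Syt10-Cre tg/wt, and were restored in brain. WT mice carried Arntl wt/wt, K14Cre wt/tg and Syt10-Cre tg/wt, so RERE and WT had both Cre transgenes, while BRE lacked K14Cre and EpiRE lacked Syt10-Cre. All were C57BL/6 females of 8 weeks, held for 156 to 176 h in darkness, with 4 biological replicates a group. K14Cre is driven by the keratin 14 promoter, which is active in basal keratinocytes and in other stratified epithelia, and Syt10-Cre by a gene expressed in the suprachiasmatic nucleus and in other neurons. The stopFL allele blocks Arntl until Cre removes the stop, so tissues without Cre stay without a clock in all 3 reconstituted genotypes. A group carrying stopFL with neither Cre is not analysed here.

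BMAL1, the product of Arntl, pairs with CLOCK or NPAS2 and binds E-boxes to switch on the Per, Cry and Nr1d genes and the PAR bZIP factors Dbp, Tef and Hlf. PER and CRY proteins repress that pair, while the REV-ERB proteins made from Nr1d1 and Nr1d2 compete with ROR factors at RORE sites and hold down Npas2, Cry1, Nfil3 and Arntl itself. In the epidermis the clock is known to time DNA replication of basal keratinocytes and their metabolism, and the brain clock sets feeding and other daily signals that reach the skin.

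Expression was read as log2 RPKM, the log2 of reads per kilobase of gene scaled to library size, so a difference of 1 is a doubling. Libraries at CT16 held 11411033 to 17295594 counted reads, recovered from the deposited values, and 15340 to 15920 genes had reads in each. EpiRE replicates 2, 3 and 4 were the shallowest, at 11411033, 11718209 and 11727624 reads. The tissue label was checked against its markers. The summed level of 8 keratinocyte markers (Krt5, Krt14, Krt1, Krt10, Col17a1, Trp63, Dsp and Perp) was 20800 to 25500 RPKM in RERE, 18800 to 23500 in EpiRE, 25200 to 26700 in BRE and 21300 to 23400 in WT libraries. All 6 fibroblast, 4 endothelial, 4 adipocyte and 7 hair shaft markers in the tables fell below the expression filter, a mean of 0 log2 RPKM (1 RPKM) over the 16 libraries. Summed RPKM of 9 hair follicle markers was 497 to 1190 in RERE, 739 to 791 in EpiRE, 553 to 878 in BRE and 745 to 1040 in WT libraries, and of 8 Langerhans and myeloid markers 76.6 to 154, 92.9 to 112, 85.5 to 171 and 91.2 to 198 in the same order of genotypes.

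RERE replicate 2 stood apart from its group, with a root mean square deviation from the group median of 0.319 log2 over the tested genes, against 0.191 to 0.251 in the 15 other libraries. Its mean over 19 immediate early and dissociation genes was 6.48 log2 RPKM, against 7.22 to 8.57 in the others. Fos, an immediate early transcription factor named here for that library, stood at 11.79, 9.25, 10.53 and 10.97 log2 RPKM in RERE, at 10.96, 11.13, 10.68 and 10.52 in EpiRE, at 10.84, 10.50, 11.49 and 11.07 in BRE and at 10.29, 10.31, 11.33 and 11.34 in WT libraries. WT libraries also differed among themselves in clock genes, as the values of Per3 and Nr1d1 below show. Where a call printed with its difference ended when 1 library was left out, that is said with the gene or, for a list, with its count.

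Of 11068 genes tested, 731 differed among the 4 genotypes at CT16, which is 6.6% (limma moderated F test, Benjamini-Hochberg adjusted p below 0.05, a rule used throughout). The genes described below belong mostly to the clock, to DNA replication, to lipid and sugar metabolism and to the upper epidermis. In BRE relative to WT, 582 genes (5.26%) were called, 163 higher (1.47%) and 419 lower (3.79%), and 67 of them differed by at least 2-fold. In EpiRE relative to WT, 125 genes (1.13%) were called, 36 higher (0.325%) and 89 lower (0.804%), 11 of them by at least 2-fold. In RERE relative to WT, only 3 of the genes tested (0.0271%) were called, with 637 at an unadjusted p below 0.05 and 3 called by limma-voom on recovered reads. These 3 comparisons share the WT libraries, so they are not independent of each other.

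Against BRE, 553 genes (5.0%) were called in RERE, 402 higher (3.63%) and 151 lower (1.36%), and 896 (8.1%) in EpiRE, 672 higher (6.07%) and 224 lower (2.02%). No gene was called between RERE and EpiRE (0.0%) by limma, with 1164 genes at an unadjusted p below 0.05 and 0 called by limma-voom. The split into higher and lower calls followed the scaling: with median-of-ratios scaling, BRE against WT gave 286 higher and 206 lower genes, RERE against BRE 203 and 256, and EpiRE against BRE 378 and 413, while EpiRE against WT gave 52 and 82. The median difference of all tested genes was -0.075 log2 in BRE minus WT and 0.067 in RERE minus BRE with the deposited scaling, and -0.005 and 0.002 after median-of-ratios scaling.

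The EpiRE counts rested on single libraries. EpiRE against WT gave 0 calls without EpiRE replicate 3, 1 without WT replicate 4, 3 without WT replicate 3, 4 without EpiRE replicate 4, 23, 30 and 39 without WT replicate 1, EpiRE replicate 2 and WT replicate 2, and 284 without EpiRE replicate 1. RERE against EpiRE gave 61 calls without EpiRE replicate 1 and 2 without RERE replicate 2. For BRE against WT the count stayed between 168 (without WT replicate 1) and 491 (without BRE replicate 2), with 237 and 242 without BRE replicates 1 and 4, 370 without BRE replicate 3, and 247, 362 and 381 without WT replicates 2, 4 and 3. RERE against BRE gave 175 calls without BRE replicate 4, 242 and 269 without RERE replicates 2 and 3, and 357 without BRE replicate 3. EpiRE against BRE gave 195, 265 and 428 without BRE replicates 4, 3 and 2, and 231, 346 and 373 without EpiRE replicates 2, 4 and 3. The count over the 4 genotypes was lowest without BRE replicate 4, at 254.

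**Figure D1:**
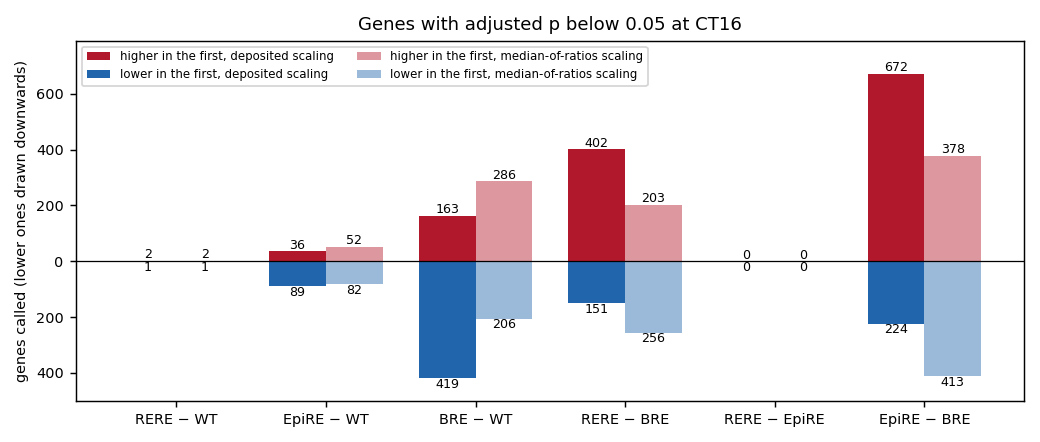
Number of genes with adjusted p below 0.05 at CT16 in each of 6 comparisons (x axis), drawn up for genes higher in the first-named genotype and down for lower ones, with the deposited scaling (dark) and median-of-ratios scaling (pale). The 3 comparisons with BRE have 553 to 896 calls with the deposited scaling and 459 to 791 with median-of-ratios scaling, while RERE minus WT has 3 and RERE minus EpiRE 0 with either.

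Arntl (ENSMUSG00000055116, chr7:113207465-113314126, mm10) did not differ between any pair of genotypes. It stood at 4.04, 3.08, 3.74 and 4.22 log2 RPKM in RERE, at 4.46, 3.75, 3.97 and 4.30 in EpiRE, at 3.86, 3.92, 3.90 and 3.97 in BRE and at 3.78, 3.83, 4.38 and 4.47 in WT libraries. The BRE minus WT difference was -0.21 ± 0.22 (SE) log2 (adjusted p = 0.589). BRE libraries lay within the WT range. The labels do not say where the stop cassette sits, so these reads do not check the genotype.

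Promoter stretches of 6 clock genes are shown because they carry the motifs of the factors named above. They come from RefSeq windows of 300 bases around a gene's start, most of them before it (GRCm38.p6, the build called mm10), read 5′ to 3′ on the strand of the gene. Capitals mark an exact E-box (CACGTG) in Ciart, Cry1, Tef and Pdxk, a D-box (TTATGTAA), the site of DBP, TEF and HLF, in Per3, and an AGGTCA motif, the core of ROR and REV-ERB sites, in Nr1d2. Both strands were searched.
Ciart, chr3:95882237-95882374, minus strand: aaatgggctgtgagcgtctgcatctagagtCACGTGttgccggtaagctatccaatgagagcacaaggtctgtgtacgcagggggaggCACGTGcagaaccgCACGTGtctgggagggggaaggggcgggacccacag
Cry1, chr10:85185079-85185144, minus strand: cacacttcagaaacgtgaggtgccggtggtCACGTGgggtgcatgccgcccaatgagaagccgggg
Tef, chr15:81811246-81811311, plus strand: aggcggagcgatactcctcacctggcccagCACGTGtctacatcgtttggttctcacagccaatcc
Pdxk, chr10:78465093-78465158, minus strand: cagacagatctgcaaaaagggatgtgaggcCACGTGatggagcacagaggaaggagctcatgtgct
Per3, chr4:151044786-151044900, minus strand: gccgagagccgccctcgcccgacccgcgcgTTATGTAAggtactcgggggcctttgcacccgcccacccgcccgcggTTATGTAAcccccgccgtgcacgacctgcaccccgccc
Nr1d2, chr14:18239148-18239213, minus strand: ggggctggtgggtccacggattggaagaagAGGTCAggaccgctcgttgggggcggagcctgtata
Ciart held 3 E-boxes in this window, Cry1, Pdxk and this start of Tef 1 each, and Per3 2 D-boxes. Of 32851 RefSeq promoter windows, 7.15% held an E-box, 0.938% a D-box and 16.3% the AGGTCA motif. The windows of Npas2, Nr1d1, Dbp, Ttc9 and Fah held neither an E-box nor a D-box of these letters.

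Npas2 and Cry1 rose in BRE relative to WT, 2 of 6 tested activators and RORE-driven genes, where 1.47% of all tested genes rose. None of the 6 fell by this test, and the list median was 0.66 log2 against -0.075 for all tested genes. Npas2, the partner of BMAL1 that can replace CLOCK, stood at 2.29, 1.59, 1.52 and 2.18 log2 RPKM in RERE, at 3.14, 2.21, 1.97 and 3.39 in EpiRE, at 4.19, 4.42, 4.46 and 4.57 in BRE and at 1.88, 1.70, 2.79 and 2.65 in WT libraries. All BRE libraries lay above all others. The difference, BRE minus WT, was 2.16 ± 0.31 log2 (4.46-fold, adjusted p = 0.00232).

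Cry1, a repressor whose gene has both E-box and RORE control, stood at 4.25, 4.08, 4.24 and 4.53 log2 RPKM in RERE, at 4.35, 3.55, 3.71 and 4.28 in EpiRE, at 5.29, 5.41, 5.13 and 5.37 in BRE and at 4.47, 4.40, 4.54 and 4.48 in WT libraries. BRE was again above every other library, by 0.83 ± 0.15 log2 over WT (adjusted p = 0.00794), and EpiRE minus WT was -0.50 ± 0.15 (adjusted p = 0.11). Clock and Nfil3, a repressor at D-boxes, were not called in BRE against WT, with differences of 0.26 ± 0.09 and 1.12 ± 0.50 log2 (adjusted p = 0.0859 and 0.181).

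Per3, Nr1d1 and Nr1d2 fell in BRE relative to WT, 3 of 8 tested clock repressors, where 3.79% of all tested genes fell. None of the 8 rose by this test, and the list median was -0.89 log2. Per3 (chr4:151003652-151044665) stood at 3.79, 4.84, 4.52 and 3.72 log2 RPKM in RERE, at 3.21, 4.37, 4.19 and 3.34 in EpiRE, at 1.54, 1.48, 1.10 and 0.96 in BRE and at 4.42, 4.55, 2.83 and 3.23 in WT libraries. BRE libraries did not overlap any other, and WT replicates 1 and 2 were higher than replicates 3 and 4. BRE minus WT was -2.49 ± 0.38 log2 (adjusted p = 0.00339).

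Nr1d1, which encodes REV-ERB alpha, stood at 3.81, 5.20, 4.74 and 3.87 log2 RPKM in RERE, at 4.11, 5.71, 6.34 and 5.49 in EpiRE, at 1.65, 2.06, 2.11 and 2.17 in BRE and at 4.60, 5.16, 3.16 and 3.60 in WT libraries. BRE libraries were the 4 lowest and 3 EpiRE libraries the highest. The difference between BRE and WT was -2.13 ± 0.47 log2 (adjusted p = 0.019, and 0.0741 with limma-voom), and its adjusted p was 0.0568 without BRE replicate 1, 0.0675 without WT replicate 1 and 0.0591 without WT replicate 2. EpiRE minus BRE was 3.41 ± 0.47 (10.7-fold, adjusted p = 0.00209), while EpiRE minus WT was 1.28 ± 0.47 (adjusted p = 0.185, and 0.047 without EpiRE replicate 1). Nr1d2, which encodes REV-ERB beta and whose AGGTCA motif is printed above, stood at 4.30, 5.16, 4.73 and 4.14 log2 RPKM in RERE, at 3.68, 5.0, 5.03 and 4.58 in EpiRE, at 1.74, 1.57, 1.81 and 1.92 in BRE and at 4.75, 5.19, 3.47 and 3.95 in WT libraries. Only the BRE libraries lay below 3 among these 16, and BRE minus WT was -2.58 ± 0.35 log2 (0.167 of the WT level, adjusted p = 0.00154).

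Per2 was lower on average in BRE without passing the test, at 3.47, 3.93, 4.02 and 3.16 log2 RPKM in RERE, 2.39, 3.66, 3.28 and 3.00 in EpiRE, 2.39, 2.84, 1.71 and 2.83 in BRE and 4.01, 4.39, 2.47 and 2.80 in WT libraries. BRE and WT overlapped, and the difference was -0.97 ± 0.40 log2 (adjusted p = 0.152). Per1, Cry2 and Bhlhe40 differed by 0.08 ± 0.44, -0.04 ± 0.15 and -0.52 ± 0.23 log2 in BRE minus WT (adjusted p = 0.923, 0.892 and 0.18). Ciart, a repressor with the 3 E-boxes printed above, stood at 1.6, 1.63, 1.31 and 0.32 log2 RPKM in RERE and at 0.59, -0.40, -0.49 and -0.85 in BRE libraries, where RERE replicate 4 lay below BRE replicate 1. RERE minus BRE was 1.5 ± 0.38 log2 (adjusted p = 0.0364), and BRE minus WT -0.81 ± 0.38 (adjusted p = 0.203). The first call was lost in the fit of RERE and BRE alone (adjusted p = 0.0874) and without RERE replicate 1, 2 or 3 or BRE replicate 2, 3 or 4 (adjusted p of 0.0635 to 0.113). Bhlhe41 fell below the expression filter.

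**Figure D2:**
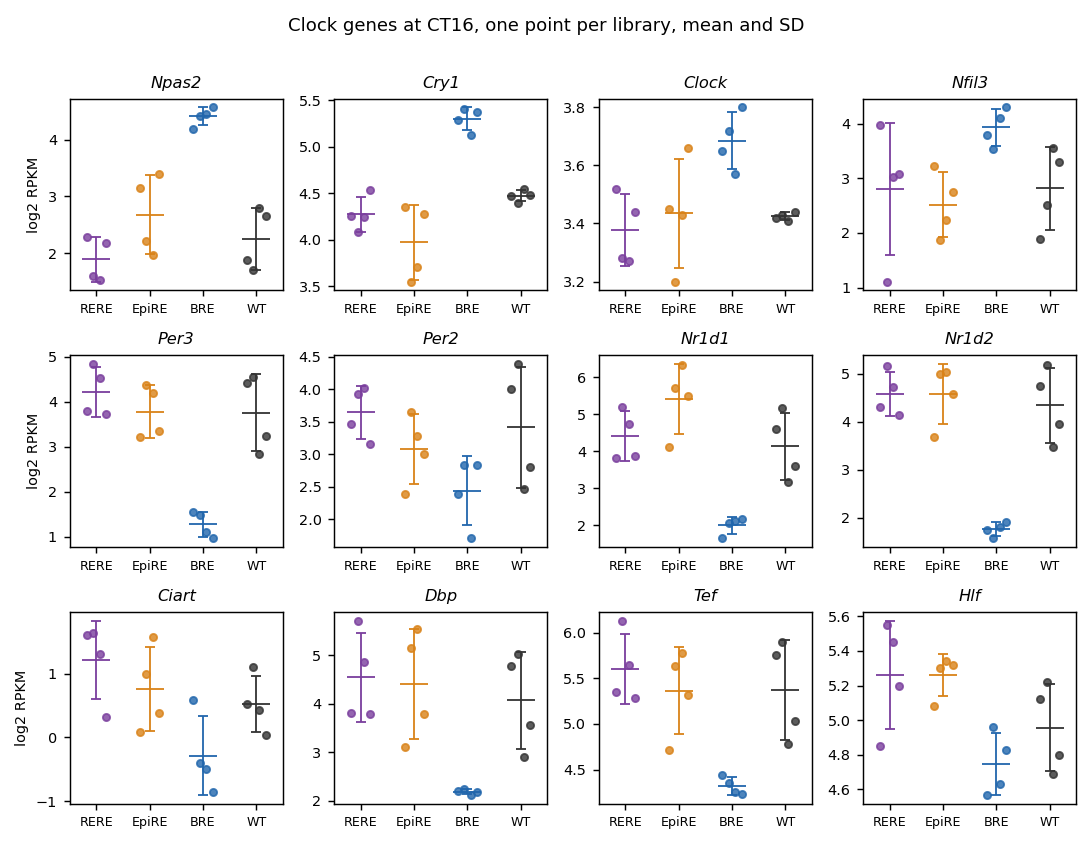
Log2 RPKM of 12 clock genes at CT16 by genotype, 1 point per library with the mean and SD of 4 libraries. BRE libraries lie above all WT libraries for Npas2, Cry1 and Clock and below all for Per3, Nr1d1, Nr1d2, Dbp and Tef, and the WT points of Per3 run from 2.83 to 4.55.

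Of 3 PAR bZIP factors tested, which drive D-box genes, 1 fell in BRE relative to WT, where 3.79% of all tested genes fell. Tef stood at 5.35, 6.13, 5.65 and 5.28 log2 RPKM in RERE, at 4.71, 5.64, 5.78 and 5.32 in EpiRE, at 4.44, 4.35, 4.25 and 4.23 in BRE and at 5.76, 5.90, 4.78 and 5.03 in WT libraries. All BRE libraries were below all others, and BRE minus WT was -1.05 ± 0.26 log2 (adjusted p = 0.0325). Leaving out either of WT replicates 1 and 2, or any BRE replicate, ended the call, with adjusted p of 0.0527 to 0.103.

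Dbp stood at 3.82, 5.71, 4.86 and 3.78 log2 RPKM in RERE, at 3.12, 5.15, 5.55 and 3.80 in EpiRE, at 2.2, 2.25, 2.12 and 2.18 in BRE and at 4.78, 5.03, 2.91 and 3.57 in WT libraries. Its BRE libraries lay close together and below the rest, while the SD was 0.925 in RERE, 1.14 in EpiRE and 1.00 in WT (n = 4 each). BRE minus WT was -1.88 ± 0.56 log2 (adjusted p = 0.0613), and RERE minus BRE and EpiRE minus BRE were called at 2.35 ± 0.56 and 2.22 ± 0.56 (adjusted p = 0.0276 and 0.0294). With limma-voom neither was called (adjusted p = 0.0864 and 0.098). The call in RERE was lost without RERE replicate 2 or 3 or BRE replicate 1, 3 or 4 (adjusted p of 0.0518 to 0.0836), and that in EpiRE without EpiRE replicate 2 or 3 or BRE replicate 2, 3 or 4 (0.0557 to 0.085). Hlf passed in EpiRE minus BRE alone among the 6 comparisons, at 0.51 ± 0.15 log2 (adjusted p = 0.0422), and that call was lost without any 1 of the 8 libraries other than EpiRE replicate 1 (adjusted p of 0.0513 to 0.103).

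Of 10 tested clock output genes, 1 fell and 2 rose in BRE relative to WT, where 3.79% and 1.47% of all tested genes did. Pdxk, which encodes the pyridoxal kinase that makes active vitamin B6, stood at 2.87, 3.10, 3.14 and 2.98 log2 RPKM in RERE, at 2.30, 2.32, 2.59 and 2.22 in EpiRE, at 1.96, 2.23, 1.68 and 2.11 in BRE and at 2.89, 2.98, 2.72 and 2.79 in WT libraries. All EpiRE and all BRE libraries lay below all WT libraries. The difference between BRE and WT was -0.85 ± 0.11 log2 (adjusted p = 0.00154) and EpiRE minus WT -0.48 ± 0.11 (adjusted p = 0.0538, and 0.0389 with limma-voom). Ttc9, a tetratricopeptide repeat protein, rose by 1.49 ± 0.28 log2 and Fah, the last enzyme of tyrosine breakdown, by 0.76 ± 0.18 in BRE relative to WT (adjusted p = 0.0112 and 0.027). The Fah call was lost without BRE replicate 1 or 2 or WT replicate 1, 2 or 3 (adjusted p of 0.0578 to 0.0676).

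Of the 27 tested genes of the 4 clock lists, limma called 0 in RERE and 0 in EpiRE relative to WT. At an unadjusted p below 0.05 there were 0 in RERE and 5 in EpiRE, and limma-voom called 0 and 1 (Pdxk). In BRE relative to WT, 4 rose and 5 fell, where 1.47% and 3.79% of all tested genes did. Relative to BRE, 8 were higher and 4 lower in RERE, where 3.63% and 1.36% of all tested genes were. In EpiRE, 6 were higher and 5 lower than in BRE, where 6.07% and 2.02% of all tested genes were. In WT libraries, replicates 1 and 2 were higher than replicates 3 and 4 in Per3, Per2, Nr1d1, Nr1d2, Dbp and Tef. In WT, mean Nr1d1 was 6.29 log2 RPKM at CT12, 4.13 at CT16 and 3.30 at CT20.

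Of 25 tested S phase genes, 8 fell in EpiRE and 8 in BRE relative to WT, and none rose, where 0.804% of all tested genes fell in EpiRE and 3.79% in BRE. In RERE relative to WT, limma and limma-voom called 0, and 0 had an unadjusted p below 0.05, against 25 in EpiRE and 22 in BRE. The list medians were -0.02 log2 in RERE, -0.77 in EpiRE and -0.64 in BRE minus WT, and all 25 members were below 0 in EpiRE and in BRE. Among those called in both were Mcm6, Pola1, Chaf1a and Chaf1b, and Pcna, Ccne2 and Rrm1 were called in EpiRE and Mcm7, Tyms and Prim1 in BRE. Compared directly, RERE minus EpiRE gave 0 S phase calls by limma and by limma-voom. There all 25 members were above 0, with a median of 0.78 log2 and 24 at an unadjusted p below 0.05.

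Mcm6, a subunit of the replicative helicase, stood at 4.40, 4.69, 4.54 and 4.75 log2 RPKM in RERE, at 4.06, 4.13, 3.74 and 3.59 in EpiRE, at 3.69, 4.14, 4.25 and 3.47 in BRE and at 4.70, 4.62, 4.63 and 4.49 in WT libraries. EpiRE and BRE libraries lay below all RERE and WT libraries. EpiRE minus WT was -0.73 ± 0.16 log2 (adjusted p = 0.0391) and BRE minus WT -0.72 ± 0.16 (adjusted p = 0.0176). The EpiRE call was lost without any 1 of the 8 libraries other than EpiRE replicate 1 (adjusted p of 0.0576 to 0.123), and the BRE call without BRE replicate 1 or 4 or WT replicate 1 (0.0516 to 0.0607). Its promoter is shown for its E2F-type sites (TTTNGCGC, both strands), in capitals, 2 of them overlapping as a single run. Of all RefSeq windows, 1.38% held this motif.
Mcm6, chr1:128359715-128359845, minus strand: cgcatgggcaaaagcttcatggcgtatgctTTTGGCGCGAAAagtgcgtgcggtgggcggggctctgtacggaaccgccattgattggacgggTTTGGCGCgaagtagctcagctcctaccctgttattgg
Chaf1b, a subunit of the chromatin assembly factor that loads histones at forks, stood at 2.08, 2.19, 1.96 and 2.06 log2 RPKM in RERE, at 1.58, 1.44, 1.05 and 1.02 in EpiRE, at 1.37, 1.57, 1.91 and 1.10 in BRE and at 2.25, 2.2, 2.17 and 2.23 in WT libraries. The WT libraries lay close together, and neither EpiRE nor BRE overlapped them. The differences from WT were -0.94 ± 0.15 in EpiRE and -0.73 ± 0.15 log2 in BRE (adjusted p = 0.0196 and 0.0165). Leaving out EpiRE replicate 3 or 4 or WT replicate 3 or 4 ended the first call (adjusted p of 0.0516 to 0.0646), and leaving out BRE replicate 1 or WT replicate 1 the second (0.0513 and 0.054), as did a spread estimated over all 96 libraries (0.0629).

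Genes outside the list that take part in replication were also among the largest falls in EpiRE relative to WT. E2f1, a transcription factor of S phase entry, stood at 2.69, 2.89, 2.78 and 3.17 log2 RPKM in RERE, at 2.32, 2.22, 2.08 and 1.3 in EpiRE, at 1.89, 2.42, 2.48 and 1.91 in BRE and at 3.03, 3.11, 3.06 and 2.83 in WT libraries. RERE overlapped WT, and EpiRE and BRE did not. EpiRE minus WT was -1.03 ± 0.20 log2 and BRE minus WT -0.83 ± 0.20 (adjusted p = 0.0282 and 0.0272). The EpiRE call was lost in the fit of EpiRE and WT alone (adjusted p = 0.0588) and without EpiRE replicate 3 or 4 or any WT library (0.0543 to 0.091), and the BRE call without BRE replicate 1 or 4 or WT replicate 1, 2 or 3 (0.0565 to 0.0827). Lig1, the ligase that joins Okazaki fragments, fell by 0.99 ± 0.18 log2 in EpiRE and by 0.73 ± 0.18 in BRE, and Pole2, a subunit of polymerase epsilon, by 0.97 ± 0.17 and by 0.84 ± 0.17 (adjusted p = 0.0255, 0.0327, 0.0248 and 0.014). For Lig1, the EpiRE call was lost in the fit of EpiRE and WT alone (adjusted p = 0.0639) and without EpiRE replicate 2, 3 or 4 or WT replicate 1, 3 or 4 (0.0517 to 0.0951), and the BRE call with median-of-ratios scaling (0.0528) and without BRE replicate 1 or 4 or any WT library (0.0564 to 0.0974). The Pole2 call in EpiRE was lost without EpiRE replicate 3 or 4 or WT replicate 3 or 4 (adjusted p of 0.0516 to 0.0834).

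The 22 tested G2/M genes gave 0 calls by limma in each of the 3 comparisons with WT, with 0, 7 and 9 at an unadjusted p below 0.05 in RERE, EpiRE and BRE, and 0, 0 and 1 called by limma-voom. Their medians were -0.07 log2 in RERE, -0.52 in EpiRE and 0.36 in BRE minus WT, with 18 of 22 above 0 in BRE and 1 of 22 in EpiRE. In EpiRE minus BRE, all 22 were below 0, the median was -0.91 log2, limma called 0, limma-voom called 6 and 18 had an unadjusted p below 0.05. Cdk2, the S phase kinase, fell by 0.53 ± 0.08 log2 in BRE relative to WT (adjusted p = 0.00339). It was the sole call among 11 tested D cyclins, CDKs and CDK inhibitors, where 3.79% of all tested genes fell. Cdc25b, a phosphatase that activates CDKs at mitosis, stood at 3.74, 4.91, 4.55 and 4.44 log2 RPKM in RERE, at 4.30, 4.54, 4.84 and 4.61 in EpiRE, at 2.91, 3.54, 3.05 and 3.01 in BRE and at 4.73, 4.62, 4.16 and 4.27 in WT libraries. It was lower in every BRE library than in any other. The difference from WT was -1.32 ± 0.21 log2 (adjusted p = 0.00427).

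The S phase counts depended on single libraries and on the scaling. In EpiRE the count was 0 without EpiRE replicate 3 or 4 or without WT replicate 3 or 4, 1 to 3 without WT replicate 1 or 2 or EpiRE replicate 2, and 17 without EpiRE replicate 1, while the list median kept between -0.89 and -0.72 log2. In BRE it was 2 to 11 over the leave-one-out fits, with 2 without BRE replicate 1, BRE replicate 4 or WT replicate 1 and 5 without WT replicate 2 or 3, and it was 5 with median-of-ratios scaling. In bulk epidermis, fewer cycling cells and less of each transcript per cell cannot be told apart.

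**Figure D3:**
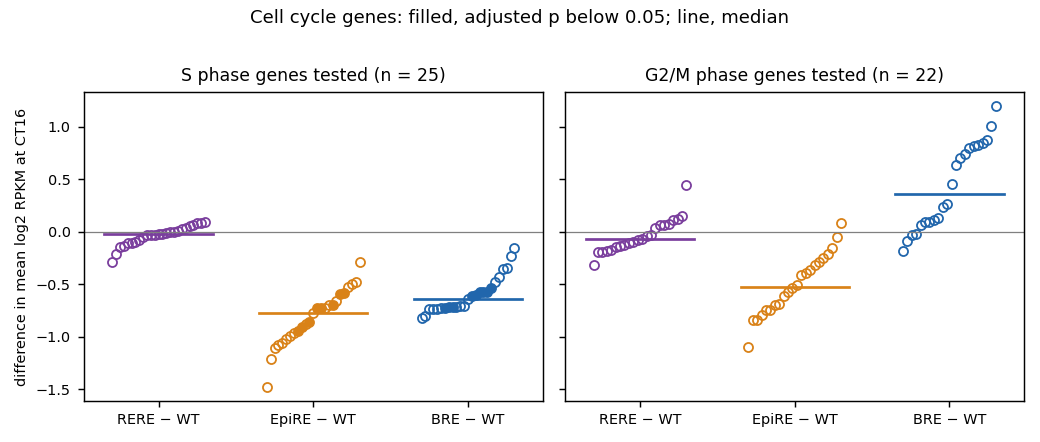
Differences from WT in mean log2 RPKM at CT16 for 25 S phase genes (left) and 22 G2/M genes (right), 1 point per gene, ordered within each genotype, filled where the adjusted p is below 0.05, with a line at the median. S phase medians are -0.02 in RERE, -0.77 in EpiRE and -0.64 in BRE, and G2/M medians -0.07, -0.52 and 0.36 with no filled point.

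Of 8 tested hypoxia-responsive genes, 4 fell in BRE relative to WT (Vegfa, Egln1, Ankrd37 and Pfkfb3) and 2 in EpiRE (Vegfa and Egln1), with list medians of -0.52 and -0.59 log2, where 3.79% and 0.804% of all tested genes fell. Limma called 0 in RERE, with 4 at an unadjusted p below 0.05 and 0 by limma-voom. All 8 were below 0 in RERE minus WT, with a list median of -0.32 log2. In EpiRE and in BRE minus WT, 7 of the 8 were below 0, and the highest differences were 0.34 and 1.01 log2. Vegfa, the vascular growth factor, stood at 2.07, 2.09, 2.94 and 1.63 log2 RPKM in RERE, at 1.87, 2.23, 1.62 and 1.55 in EpiRE, at 2.17, 2.03, 2.41 and 1.94 in BRE and at 2.81, 3.02, 3.55 and 2.85 in WT libraries. RERE replicate 3 alone among the 12 reconstituted libraries reached the WT range. The differences from WT were -0.87 ± 0.24 log2 in RERE (adjusted p = 0.513), -1.24 ± 0.24 in EpiRE (adjusted p = 0.0282) and, for BRE, -0.92 ± 0.24 (adjusted p = 0.0377, and 0.0583 with median-of-ratios scaling). Leaving out EpiRE replicate 3 or 4 or any WT library ended the EpiRE call, and leaving out BRE replicate 1, 2 or 4 or any WT library the BRE call. The BRE count of 4 was 2 with median-of-ratios scaling, 1 without BRE replicate 1 or WT replicate 1 and 2 without BRE replicate 4 or WT replicate 2, 3 or 4. Pfkfb3, which makes the activator of glycolytic phosphofructokinase, fell by 1.17 ± 0.23 log2 in BRE relative to WT (adjusted p = 0.0125).

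Of 15 tested glycolysis genes, 3 fell in EpiRE relative to WT (Pgk1, Tpi1 and Ldha), where 0.804% of all tested genes fell. Limma and limma-voom called 0 in RERE and in BRE, where 3 and 6 had an unadjusted p below 0.05. Pgk1, phosphoglycerate kinase, stood at 4.48, 4.55, 4.91 and 4.65 log2 RPKM in RERE, at 4.36, 4.26, 4.12 and 4.08 in EpiRE, at 4.43, 4.50, 4.48 and 4.43 in BRE and at 4.70, 4.68, 5.19 and 4.70 in WT libraries. WT replicate 3 was the highest, and EpiRE lay below all WT. EpiRE minus WT was -0.61 ± 0.11 log2 (adjusted p = 0.0255), lost in the fit of EpiRE and WT alone (0.0588) and without EpiRE replicate 2, 3 or 4 or WT replicate 3 or 4 (0.0516 to 0.0862). The count of 3 was 0 in the fit of EpiRE and WT alone and without EpiRE replicate 3 or 4 or WT replicate 3 or 4, and 1 without EpiRE replicate 2 or WT replicate 1 or 2.

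Of 13 tested genes of fasting and fatty acid oxidation, 5 rose in BRE relative to WT, Acadl, Acot1, Hadha and Hadhb among them, and none fell, where 1.47% of all tested genes rose. Limma and limma-voom called 0 in RERE and in EpiRE, where 0 and 1 had an unadjusted p below 0.05. Acadl, the long-chain acyl-CoA dehydrogenase, stood at 4.94, 4.81, 5.06 and 4.94 log2 RPKM in RERE, at 5.08, 4.92, 4.88 and 5.07 in EpiRE, at 5.48, 5.60, 5.34 and 5.59 in BRE and at 4.90, 5.04, 4.94 and 5.01 in WT libraries. All BRE libraries were highest, by 0.53 ± 0.07 log2 over WT (adjusted p = 0.00153). Acot1 has near-identical paralogs, and the labels do not say how reads shared between copies were counted. The count of 5 was 1 without WT replicate 1, 2 without WT replicate 3 or BRE replicate 4, and 3 without WT replicate 2, WT replicate 4 or BRE replicate 3.

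Stefins and clade B serpins are protease inhibitors, many of them made in the upper epidermis. Of 8 tested, 6 rose in BRE (Stfa1, BC100530, Csta1, Serpinb2, Serpinb3b and Serpinb12), 2 in EpiRE (Serpinb3b and Serpinb12) and 1 in RERE (Serpinb3b) relative to WT, and the medians were 1.22 log2 in RERE, 1.3 in EpiRE and 1.15 in BRE. Of all tested genes 1.47% rose in BRE, 0.325% in EpiRE, and 0.0271% were called in either direction in RERE. Stfa1 and BC100530 had WT means of -1.51 and -1.25 log2 RPKM, below the filter of 0. They passed it through the higher reconstituted genotypes, so the filter favoured rises over WT in these counts and medians. Serpinb12 stood at 4.23, 2.73, 4.11 and 4.12 log2 RPKM in RERE, at 4.27, 3.53, 4.19 and 4.07 in EpiRE, at 4.75, 4.79, 4.86 and 4.95 in BRE and at 2.08, 2.84, 2.38 and 2.61 in WT libraries. WT was lowest apart from RERE replicate 2, which lay within the WT range. The differences from WT were 1.32 ± 0.27 log2 in RERE (adjusted p = 0.173), 1.53 ± 0.27 in EpiRE (adjusted p = 0.0248) and, for BRE, 2.36 ± 0.27 (5.13-fold, adjusted p = 0.000434). The EpiRE call for Serpinb12 was lost without EpiRE replicate 3 or 4 or WT replicate 1, 3 or 4 (adjusted p of 0.0543 to 0.0834). The BRE count of 6 was 3 without BRE replicate 1 or 4 or WT replicate 1, 2 or 4, and the EpiRE count of 2 was 0 without EpiRE replicate 3 or WT replicate 4 and 1 without EpiRE replicate 4 or WT replicate 1 or 3.

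Serpinb3b rose in all 3, by 1.13 ± 0.17 log2 in RERE, 1.20 ± 0.17 in EpiRE and 1.19 ± 0.17 in BRE over WT (adjusted p = 0.0288, 0.0136 and 0.00206). The RERE call was lost in the fit of RERE and WT alone (adjusted p = 0.423), with a spread estimated over all 96 libraries (0.373) and without RERE replicate 1, 3 or 4 or WT replicate 1, 3 or 4 (0.0521 to 0.137). The EpiRE call was lost without EpiRE replicate 3 (0.0625) or WT replicate 4 (0.0516). Its values were 4.68, 4.61, 4.93 and 5.01 log2 RPKM in RERE, 4.80, 4.74, 4.95 and 5.04 in EpiRE, 5.13, 4.90, 4.74 and 4.71 in BRE and 3.97, 4.11, 3.27 and 3.39 in WT libraries, with no overlap with WT. BC100530, a stefin gene, stood at 3.34, 2.18, 2.84 and 2.57 log2 RPKM in BRE and at -2.44, 0.55, -0.78 and -2.31 in WT libraries, a difference of 3.98 ± 0.83 log2 (adjusted p = 0.0154, and 0.058 without WT replicate 1). Stfa1 stood at 2.19, 1.86, 1.93 and 2.44 in BRE and at -0.04, -4.69, 0.06 and -1.37 in WT, 3.61 ± 0.88 log2 (adjusted p = 0.0309). Without WT replicate 2, the lowest library, the Stfa1 difference was 2.55 log2 (adjusted p = 0.0554), and the call was also lost without BRE replicate 1, 3 or 4 or WT replicate 4 (0.0573 to 0.0804). Neither gene was high in BRE alone. RERE and EpiRE exceeded WT by 2.85 and 3.05 log2 in BC100530 and by 2.78 and 3.14 in Stfa1, without a call. These genes belong to clusters of near-identical copies, so reads may be divided between them in ways that cannot be traced.

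Among called genes outside the clock lists with a mean of at least 5 RPKM and no overlap between the groups, a limit used for the rankings that follow, the largest rises in BRE relative to WT included Abhd12b, F3, Mt4, Thy1 and Calcb. Abhd12b, a serine hydrolase, stood at 3.19, 2.26, 2.74 and 2.75 log2 RPKM in RERE, at 2.69, 3.08, 3.36 and 3.70 in EpiRE, at 4.99, 4.57, 4.14 and 4.75 in BRE and at 1.54, 2.81, 2.14 and 1.97 in WT libraries, with BRE above all others. The difference between BRE and WT was 2.50 ± 0.27 log2 (5.64-fold, adjusted p = 0.000416). F3, tissue factor, the starter of blood coagulation, rose by 2.35 ± 0.39 log2 (adjusted p = 0.00456), and Mt4, the metallothionein of stratified epithelia, by 1.42 ± 0.15 (adjusted p = 0.000416).

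Thy1, a surface protein of T cells including those of mouse epidermis, stood at 5.11, 4.18, 4.48 and 4.78 log2 RPKM in RERE, at 5.01, 4.02, 4.04 and 4.45 in EpiRE, at 5.69, 6.52, 5.81 and 6.17 in BRE and at 4.28, 4.58, 4.96 and 4.89 in WT libraries. BRE was highest without overlap, with a difference from WT of 1.37 ± 0.25 log2 (adjusted p = 0.00794). Of 5 tested T cell markers it was the sole one called in BRE against WT, where 1.47% of all tested genes rose. In BRE minus WT, 4 of the 5 were below 0, and the list median was -0.09 log2. The summed level of the 7 T cell markers in the tables was 73.7 to 107 RPKM in BRE and 35.2 to 49.8 in WT libraries. That sum includes Thy1, so it is not a separate measure of the other markers. The part of cell numbers in the Thy1 difference was not tested.

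By the same limits, the falls in BRE relative to WT included Pyy, Ngfr, Cdc25b, Csrp2, Sectm1a, Smim24 and Aldh3a1. Pyy, which encodes peptide YY, a gut hormone, stood at 4.34, 3.89, 4.83 and 3.30 log2 RPKM in RERE, at 3.46, 5.43, 5.23 and 4.72 in EpiRE, at 3.51, 2.16, 2.60 and 1.49 in BRE and at 4.95, 4.72, 5.54 and 3.65 in WT libraries. The highest BRE value came near the lowest WT value, and the difference was -2.27 ± 0.50 log2 (adjusted p = 0.0186), lost without BRE replicate 4 or WT replicate 1 or 3 (0.0503 to 0.0635). Ngfr, the p75 neurotrophin receptor, fell by 1.38 ± 0.25 log2 (adjusted p = 0.00794). Aldh3a1, an aldehyde dehydrogenase abundant in epithelia, stood at 6.99, 7.60, 7.39 and 6.80 log2 RPKM in RERE, at 6.98, 6.82, 6.85 and 6.84 in EpiRE, at 5.88, 5.71, 5.49 and 5.57 in BRE and at 6.71, 7.35, 6.42 and 6.57 in WT libraries. BRE lay below all the others, and BRE minus WT was -1.10 ± 0.18 log2 (adjusted p = 0.00514).

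In the lists that follow, 1 to 3 members were called in BRE relative to WT, where 1.47% of all tested genes rose and 3.79% fell. Of 13 tested basal keratinocyte genes, 3 rose, among them Itga3, an integrin chain, by 0.37 ± 0.10 log2, and Lama3, a chain of the laminin it binds, by 0.36 ± 0.09 (adjusted p = 0.0398 and 0.0326). The Itga3 call was lost without any 1 of the 8 libraries other than WT replicate 2 (adjusted p of 0.0653 to 0.129) and in the fit of BRE and WT alone (0.053), and the Lama3 call without any 1 of the 8 (0.0519 to 0.101). Of 18 antioxidant genes, 2 fell (Sod2 and Prdx6), and Sod2, the mitochondrial superoxide dismutase, stood at 3.20, 3.33, 3.23 and 3.33 log2 RPKM in BRE and at 3.87, 3.92, 3.77 and 3.75 in WT libraries, a difference of -0.56 ± 0.06 (adjusted p = 0.000434). Lhx2, a transcription factor of hair follicle stem cells, was the sole call among 7 tested hair follicle markers, at -1.44 ± 0.33 log2 (adjusted p = 0.0246). That call was lost without BRE replicate 1 or 4 or WT replicate 1 or 4 (adjusted p of 0.0581 to 0.0779). Lhx2 was also below WT elsewhere, at -0.97 log2 in RERE and -1.12 in EpiRE, without a call. Of the 7 markers, 6 were below 0 in RERE minus WT, and all 7 in EpiRE and in BRE. The summed level of 9 hair follicle markers was 553 to 878 RPKM in BRE and 745 to 1040 in WT libraries, whose part in the result was not tested. Rdh12, a retinol dehydrogenase, rose by 0.55 ± 0.11 log2 (adjusted p = 0.0125), 1 of 7 tested retinoid genes.

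**Figure D4:**
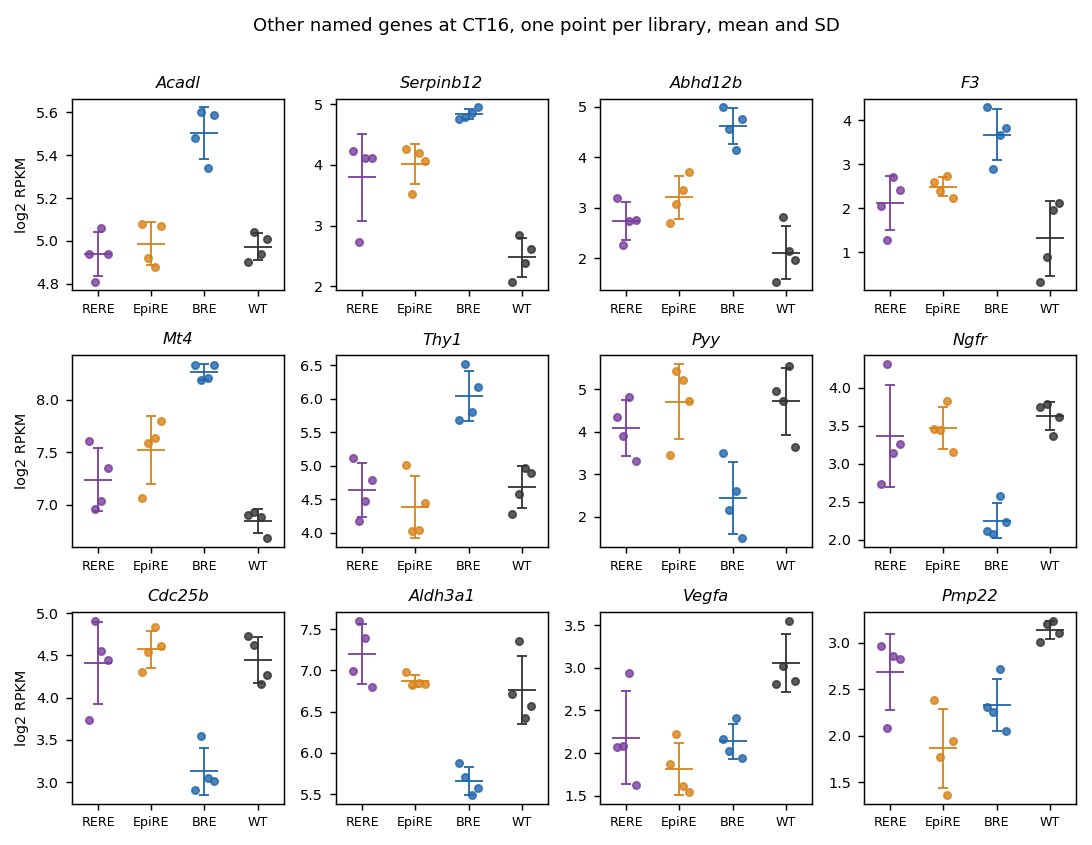
Log2 RPKM of 12 further genes at CT16 by genotype, 1 point per library with the mean and SD of 4 libraries. BRE libraries lie above all WT libraries for Acadl, Serpinb12, Abhd12b, F3, Mt4 and Thy1 and below all for the remaining 6 genes, and EpiRE libraries lie below all WT libraries for Vegfa and Pmp22.

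In EpiRE relative to WT, the largest fall by those limits was in Pmp22, a membrane protein of myelin that epithelia also express. It stood at 2.97, 2.08, 2.86 and 2.83 log2 RPKM in RERE, at 2.38, 1.77, 1.36 and 1.94 in EpiRE, at 2.31, 2.25, 2.72 and 2.05 in BRE and at 3.01, 3.20, 3.23 and 3.11 in WT libraries. WT was highest, and EpiRE minus WT was -1.27 ± 0.21 log2 (adjusted p = 0.0196), lost without EpiRE replicate 3 or 4 or WT replicate 3 or 4 (0.0516 to 0.0646). BRE minus WT was -0.80 ± 0.21 (adjusted p = 0.0401), lost with median-of-ratios scaling (0.0735), with a spread estimated over all 96 libraries (0.134) and without any 1 of the 8 libraries other than BRE replicate 3 (0.0727 to 0.114). Nxph4, Ncapg2, Atp10a, Dut and Hpgds were among the other falls. Of the rises, Cyp2b19, the arachidonate epoxygenase of suprabasal keratinocytes, stood at 4.10, 2.94, 3.60 and 3.44 log2 RPKM in RERE, at 3.55, 3.74, 3.82 and 4.06 in EpiRE, at 3.5, 3.07, 2.85 and 3.03 in BRE and at 2.80, 3.01, 2.76 and 2.87 in WT libraries. EpiRE was above all WT libraries, by 0.93 ± 0.19 log2 (adjusted p = 0.0388), a call lost without any 1 of the 8 libraries other than EpiRE replicate 1 (0.0555 to 0.11). Plscr4, Mt4, Cyp2j9, Epha1, Serhl, Slc22a15 and Paox were the other rises named by the same rule beside Serpinb12 and Serpinb3b. Pdia6, 1 of 16 tested unfolded protein response genes, and Ifitm3, 1 of 7 interferon genes, were the calls in those lists. Both fell, where 0.804% of all tested genes fell. In EpiRE minus WT, 15 of the 16 unfolded protein response genes and 3 of the 7 interferon genes were below 0.

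Against BRE, Abhd12b, Thy1 and Epgn were among the 5 most negative differences by those limits in both RERE and EpiRE, which share the BRE libraries. The 5 most positive by those limits included Aldh3a1, Cdc25b and Ngfr in both. Epgn, which encodes the EGF receptor ligand epigen, stood at 3.43, 1.58, 2.96 and 3.4 log2 RPKM in RERE, at 3.12, 3.86, 2.99 and 2.82 in EpiRE, at 4.49, 4.49, 4.39 and 5.41 in BRE and at 3.4, 3.54, 3.86 and 3.44 in WT libraries. RERE minus BRE was -1.85 ± 0.35 log2 and EpiRE minus BRE -1.5 ± 0.35 (adjusted p = 0.00954 and 0.0239). The call in RERE was lost in the fit of RERE and BRE alone (adjusted p = 0.0684), and that in EpiRE without EpiRE replicate 3 or 4 or BRE replicate 4 (0.0564 to 0.0703). Serpina3b, a secreted serpin with close paralogs, had the most negative EpiRE minus BRE difference by this rule, at -2.46 ± 0.60 log2 (adjusted p = 0.0272), lost without EpiRE replicate 2 or 3 or BRE replicate 2 or 4 (0.054 to 0.0786). Mmp2, the gelatinase of the extracellular matrix, was higher in RERE than in BRE by 1.08 ± 0.22 log2 (adjusted p = 0.0145).

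The 3 genes called between RERE and WT were Serpinb3b, given above, Krt2 and Scube2, of which the last 2 lie outside the naming rule and were chosen after their values were seen. Krt2, a keratin of the upper epidermis, stood at 3.27, 2.18, 2.97 and 2.89 log2 RPKM in RERE, at 2.19, 1.55, 1.05 and 1.92 in EpiRE, at 0.14, -1.03, -0.50 and -0.03 in BRE and at 1.12, 0.72, 0.81 and 0.86 in WT libraries. BRE lay below WT and RERE above it without overlap, while 1 EpiRE library fell within the WT range. RERE minus WT was 1.95 ± 0.28 log2 (adjusted p = 0.0288), BRE minus WT -1.23 ± 0.28 (adjusted p = 0.024, 0.0926 with limma-voom, 0.0608 on the log2(RPKM + 1) scale, and 0.052 to 0.0779 without BRE replicate 2 or 3 or WT replicate 1), and RERE minus BRE 3.18 ± 0.28 (9.06-fold, adjusted p = 5.86e-05). Krt2 has close paralogs among the type II keratins.

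Scube2, a secreted protein that aids Hedgehog release, fell in all 3 reconstituted genotypes. It stood at 1.87, 1.87, 1.76 and 1.78 log2 RPKM in RERE, at 1.77, 2.1, 1.89 and 1.82 in EpiRE, at 2.11, 2.14, 2.31 and 1.68 in BRE and at 2.50, 2.81, 2.64 and 2.49 in WT libraries. No reconstituted library reached the WT range. The differences from WT were -0.79 ± 0.12 log2 in RERE, -0.71 ± 0.12 in EpiRE and -0.55 ± 0.12 in BRE (adjusted p = 0.0297, 0.0207 and 0.0192). With a spread estimated over all 96 libraries none of the 3 calls held (adjusted p = 0.566, 0.145 and 0.188). The EpiRE call was also lost without EpiRE replicate 3 or 4 or WT replicate 3 or 4 (0.0516 to 0.0666), and the BRE call without WT replicate 2 (0.0625). The 3 RERE calls were lost in the fit of RERE and WT alone, and the count over leave-one-out fits was 0 to 7, with 7 without RERE replicate 2, 1 without WT replicate 2 and 0 without any other single library.

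Whether a difference from WT at CT16 departed from that at the 5 other times was tested with all 96 libraries. No gene was called for RERE (0.0%) by limma, with 207 genes at an unadjusted p below 0.05 and 0 by limma-voom. For BRE, 3 genes were called (0.0271%), Cry1 and Stfa1 among them. Cry1 in BRE exceeded WT by 0.83 log2 at CT16 and by 1.83 on average at the other times (-1.0 ± 0.21, adjusted p = 0.0309), a call lost without BRE replicate 1, 3 or 4 or WT replicate 1, 3 or 4 (0.0559 to 0.136). BRE means of Cry1 lay between 5.11 and 5.46 log2 RPKM at all 6 times, and WT means between 1.98 at CT4 and 4.55 at CT20. Stfa1 went the other way, at 3.61 above WT at CT16 and 0.32 elsewhere (3.29 ± 0.69, adjusted p = 0.032). Its WT mean was -1.51 log2 RPKM at CT16 (SD 2.22) and 0.76 to 2.40 at the other times. The BRE mean at CT16, 2.11, lay within its range at the other times, 0.93 to 2.43. RERE and EpiRE also exceeded WT in Stfa1 by more at CT16 (2.78 and 3.14 log2) than on average elsewhere (0.74 and 0.78), without a call. That Stfa1 call was lost with limma-voom (adjusted p = 0.495), on the log2(RPKM + 1) scale (0.451), without WT replicate 2 (2.23 log2, 0.568), and without any BRE library or WT replicate 4 (0.0554 to 0.143). The count of 3 was 1 without BRE replicate 1, 3 or 4 or WT replicate 4.

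For EpiRE, 15 genes were called (0.136%), 14 lower at CT16 and 1 higher, with 2 called by limma-voom, 28 with median-of-ratios scaling, 35 on the log2(RPKM + 1) scale and 1 with a filter at 2 log2 RPKM. Pole2 in EpiRE minus WT stood at -0.97 log2 at CT16 and at 0.16 on average at the other times, a difference of -1.13 ± 0.23 (adjusted p = 0.0437). At the single other times, EpiRE minus WT ran from -0.392 to 0.495 log2 for Pole2 and from -0.542 to 0.499 for Lig1. Lig1, Ccne1, which encodes cyclin E1, Fanca, a Fanconi anaemia repair protein, Btbd8 and Pcna, the sliding clamp, gave -1.05 ± 0.24, -1.52 ± 0.36, -1.55 ± 0.35, -1.45 ± 0.34 and -0.69 ± 0.15 log2 (adjusted p = 0.0494 for each of the 5). Ccne1, Fanca and Btbd8 were low genes, with EpiRE means at CT16 of -0.315, -0.675 and -0.355 log2 RPKM (SD 0.886, 0.616 and 0.907). Pcna at CT16 stood at 5.90, 5.47, 5.64 and 5.95 log2 RPKM in RERE, at 5.43, 5.38, 5.12 and 5.11 in EpiRE, at 5.37, 5.59, 5.79 and 5.27 in BRE and at 5.77, 5.73, 5.97 and 5.92 in WT libraries, with EpiRE below every WT value. The gene whose difference was higher at CT16 was Epha1, an ephrin receptor, at 0.39 ± 0.09. The 7 calls given here were lost without EpiRE replicate 3 or 4 or WT replicate 2, 3 or 4 (adjusted p of 0.0629 to 0.295), and all but that of Pole2 with limma-voom (0.061 or 0.0712) and without WT replicate 1 (0.112). The Fanca call was also lost without EpiRE replicate 2 (0.061), and the Epha1 call with median-of-ratios scaling (0.0521). The count was 0 without EpiRE replicate 3 or 4 or WT replicate 3 or 4, 1 and 3 without WT replicates 1 and 2, 26 without EpiRE replicate 2 and 151 without EpiRE replicate 1.

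**Figure D5:**
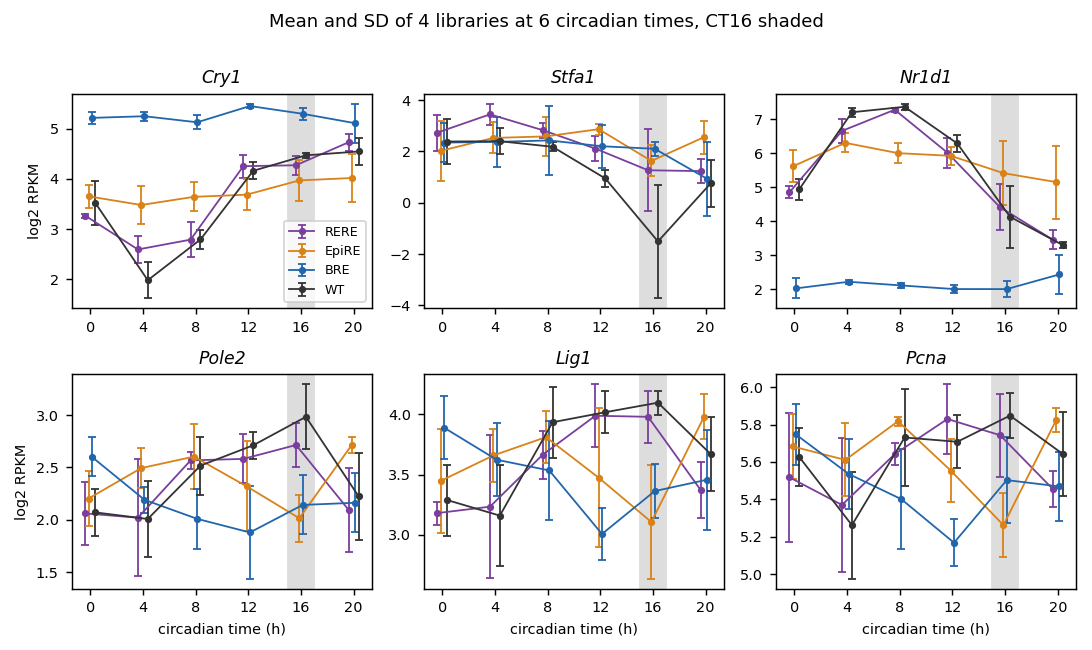
Mean log2 RPKM with SD of 4 libraries at 6 circadian times for 6 genes in 4 genotypes, with CT16 shaded. BRE means of Cry1 stay between 5.11 and 5.46 while WT means run from 1.98 to 4.55, and the EpiRE means of Pole2, Lig1 and Pcna at CT16 are the lowest of the 4 genotypes.

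Limma called 0 genes in each of the 3 comparisons with WT in the lists that follow. The 22 cholesterol synthesis genes had medians of 0.00 log2 in RERE, -0.09 in EpiRE and 0.36 in BRE minus WT, with 0, 0 and 7 at an unadjusted p below 0.05 and 1 called by limma-voom in BRE. The 17 tested genes of suprabasal differentiation had medians of 0.08, 0.11 and 0.43 in the same order of genotypes, with 2, 2 and 7 at an unadjusted p below 0.05 and 1 called by limma-voom in BRE. The 18 barrier lipid genes had medians of 0.00, 0.04 and 0.21, with 1, 3 and 9 at an unadjusted p below 0.05 and 0 called by limma-voom. The 21 oxidative phosphorylation genes, 18 cytosolic ribosomal protein genes, 14 nucleotide excision repair genes and 9 Notch genes had medians between -0.07 and 0.08 log2 in all 3, with 0 to 3 of each list at an unadjusted p below 0.05 and 0 called by limma-voom. The 19 immediate early genes had medians of -0.18, 0.04 and 0.17, the 12 glucocorticoid-responsive genes 0.26, 0.19 and 0.12, and the 17 heat shock genes -0.09, -0.15 and 0.08, with 0 to 5 of each list at an unadjusted p below 0.05 and 0 called by limma-voom. The 9 EGF receptor ligands and receptors had medians of -0.09, -0.15 and 0.28, with 0, 1 and 2 at an unadjusted p below 0.05 and 1 called by limma-voom in BRE. The 4 tested sebaceous gland, 7 Langerhans and myeloid and 2 cold-inducible genes had 0 or 1 at an unadjusted p below 0.05 and 0 called by limma-voom.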

How the data were processed

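Polyadenylated RNA of back-skin epidermis was sequenced with a stranded kit, per the labels' protocols. Reads were processed with featureCounts 1.6.0, edgeR, Trimmomatic 0.36, SAMtools 1.3.1 and HISAT2 2.2.1 on mm10 (tool names from the submitters' processing notes, which give no order). Whether molecular identifiers and strand were used in counting is not stated in the labels. The values deposited by the authors are log2 RPKM of 22497 genes. They hold a small prior added to the reads, 0.25 reads at the mean library total of a table, so differences of low genes are understated or unstable. As the mean totals differ, the value given to a gene without reads differs between tables. The 16 libraries were taken from column names that give time and replicate. Another 96 columns with codes that match no label were not used, and in the tables of EpiRE and BRE the leading digit of those codes is not in sequence, so the CT16 identity of those libraries rests on the column names alone.

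The 11068 genes whose mean over the 16 libraries reached 0 log2 RPKM were fitted with limma 3.58.1 in R 4.3.3, with genotype as a factor of 4, empirical Bayes with a mean trend, and Benjamini-Hochberg adjustment over all tested genes (two-sided, called below 0.05). All 96 libraries entered the comparison of CT16 with the other 5 times. Whole reads were recovered from the values for depth and for limma-voom, with 100.0% of values whole within 0.1 read. The fit was tested on simulated data. Errors are standard errors of the fit unless given as SD.

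Members and gene lists were chosen with earlier results of these data known. Named genes were all tested clock-list genes, the 10 highest and 10 lowest called genes relative to WT (5 in comparisons without WT) among those outside the clock lists with a mean of at least 5 RPKM and no overlap, up to 4 called members per other list, and the 5 largest called differences between times. Coordinates come from GENCODE vM21 and promoters from RefSeq GRCm38.p6. Alternatives were scaling, filter, log2(RPKM + 1), limma-voom, fits of a pair of genotypes, a spread over 96 libraries, a replicate block and leaving out each library. Counts within gene lists without single libraries and with median-of-ratios scaling were added after seeing the data. Some genes that meet the naming rule are not reported here.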

Additional observations from a re-analysis of the deposited data

Results flagged for a closer look

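Of 236 groups of 4 libraries checked, 9 held a library apart from its group by Dixon's criterion, which chance gives in about 1 of 20 groups. Hlf stood at 5.08 log2 RPKM in EpiRE replicate 1, against 5.30 to 5.34 in the other EpiRE libraries. Pgk1 stood at 5.19 in WT replicate 3, against 4.68 to 4.70. Serpinb12 stood at 2.73 in RERE replicate 2, against 4.11 to 4.23, and Pmp22 at 2.08 in the same library, against 2.83 to 2.97. Ccne2 stood at 0.63 in EpiRE replicate 1, against 0.19 to 0.26. Epgn stood at 5.41 in BRE replicate 4, against 4.39 to 4.49. Itga3 stood at 5.94 and Cdk2 at 3.83 in EpiRE replicate 2, against 5.85 to 5.86 and 3.69 to 3.71, and Fanca at 0.24 in EpiRE replicate 1, against -1.04 to -0.87.

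In 15 genes the difference of EpiRE from WT at CT16 itself differed from that at the other 5 times (limma, Benjamini-Hochberg adjusted p of 0.0437 to 0.0494). The change in difference was -1.55 log2 in Fanca, -1.52 in Ccne1, -1.45 in Btbd8, -1.13 in Pole2, -1.05 in Lig1, -1.04 in Tonsl, -0.92 in Recql4 and -0.88 in Pask. It was -0.82 in Zdhhc2, -0.79 in Suv39h2, -0.69 in Pcna, -0.65 in Adgrl1, -0.52 in Rexo2, -0.45 in Gpd2 and 0.39 in Epha1. For BRE it was -1.0 in Cry1 and 3.29 in Stfa1 (adjusted p of 0.0309 and 0.032).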

How the results depend on the processing

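Without the filter on low values, limma called 6105 genes among the 4 genotypes, 4542 in RERE, 5244 in EpiRE and 5897 in BRE against WT, 5463 in RERE and 5845 in EpiRE against BRE, 292 between RERE and EpiRE, and, for CT16 against the other times, 0 in EpiRE and 8 in BRE. Of the calls against WT, 4265 in each comparison had no reads in any of the 16 libraries, where the value given to 0 reads differs between tables. In fits of 2 genotypes alone the counts were 0 in RERE and 66 in EpiRE against WT and 113 in RERE against BRE; the cause was not tested. The EpiRE count for CT16 against the other times was 2 with limma-voom, 35 with log2(RPKM + 1), 28 with median-of-ratios scaling and 1 with the stricter filter. Leaving out single libraries gave 254 to 965 calls among the 4 genotypes, 0 to 7 in RERE, 0 to 284 in EpiRE and 168 to 491 in BRE against WT. It gave 175 to 608 in RERE and 195 to 869 in EpiRE against BRE, 0 to 61 between RERE and EpiRE, and 0, 0 to 151 and 1 to 4 for CT16 against the other times in RERE, EpiRE and BRE. Deviations of same-numbered libraries from their group means had correlations of -0.308 to 0.233 (24 pairs, 7 over 0.1). Those of different-numbered libraries had -0.403 to 0.44 (72 pairs, 15 over 0.1). Whether same-numbered libraries share a batch was not tested. With the replicate block the counts were 621 among the 4 genotypes, 2 in RERE, 54 in EpiRE and 565 in BRE against WT, 571 in RERE and 904 in EpiRE against BRE and 0 between RERE and EpiRE, and 0, 12 and 3 for CT16 against the other times. S phase calls in EpiRE were 2 with the block, of 8 without it, and named calls it ended included Mcm6 in EpiRE (adjusted p = 0.0537), Cyp2b19 in EpiRE (0.0583) and Serpinb3b in RERE (0.108). Of 1030 values of named genes under the other settings, 948 kept their side of the threshold, 72 lost the call and 10 gained it, and of 1072 with a library left out, 727, 338 and 3 did, and 4 reversed. Those 4 are the uncalled Arntl difference of EpiRE from WT, which ran from -0.112 to 0.123 log2, with -0.112 without EpiRE replicate 1, -0.06 without EpiRE replicate 4, -0.11 without WT replicate 1 and -0.10 without WT replicate 2. Genes below a mean of 1 RPKM were left out by the filter and not tested. P-values rest on 4 animals a group.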
